A study of Mus musculus with 24 samples.

Results

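The genes described here are the mouse mitochondrial ribosomal protein genes, taken as every row of the liver messenger RNA count table whose symbol reads Mrpl or Mrps, then a number, then at most 1 letter. This rule found 78 genes among the 22429 rows of the table. By the known structure of the ribosome, 26 of them encode proteins of the small subunit and 51 of the large subunit, counting Mrps18a and Mrps30 with the large subunit, where both sit. Mrps36 keeps its old symbol but is a component of the 2-oxoglutarate dehydrogenase complex, and is reported apart from both subunits.

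Livers came from 24 male mice, 4 in each of 6 groups, all F1 Hybrid animals of C57BL6J and FVBN. The wild-type groups were freely fed animals of 16 weeks, freely fed animals of 104 weeks, and animals of 16 weeks on 30% dietary restriction. Progeroid Ercc1 d/- mice carry a null copy and a truncated copy of Ercc1, whose product acts in DNA repair. Their groups were freely fed animals of 7 weeks, freely fed animals of 16 weeks, and animals of 16 weeks on the same percentage of restriction. Freely fed wild-type mice ate 3.0 g a day and freely fed mutants 2.3 g, against 2.1 g and 1.6 g under restriction. Restriction began at 7 weeks with 10% and reached its full extent at 9 weeks, and all mice went without food on the day of collection until the livers were taken. No wild type of 7 weeks was in the design, so age within the mutant has no matched wild type. Throughout, a library is the polyadenylated RNA of 1 liver. Housing and breeding of the mice within a group are not stated, and every p-value rests on the spread among these livers alone.

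Mitochondria carry their own small genome, whose messenger RNAs encode core subunits of the respiratory chain and of ATP synthase. These messages are translated inside the organelle by the mitochondrial ribosome, a relative of bacterial ribosomes with a small subunit that decodes the message and a large subunit that joins amino acids. Its ribosomal RNAs come from the mitochondrial genome, but all its proteins are encoded in the nucleus, made in the cytosol and imported. The liver is rich in mitochondria, and the ribosomal proteins, their assembly factors and the nuclear subunits of oxidative phosphorylation must be supplied together with the mitochondrial messages.

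All 78 genes passed the filter on low counts, which 12690 genes of the table passed, and the lowest count of any of them in any library was 25. Libraries held 13269792 to 20624803 counts, and the 78 genes took 0.19% to 0.243% of them on average by group. Among the lists of cell type markers, that of hepatocytes had the highest sum in every library. Its 7 markers summed to at least 60058 CPM (counts-per-million), while the 6 markers of T and NK cells summed to at most 2.45. In whole liver, fewer cells of a type and less RNA per cell cannot be told apart. Ercc1 itself was lower in restricted mutants than in restricted wild types by 1.18 on the log2 scale (adjusted p = 0.0033). In freely fed mice of 16 weeks it was lower by 0.78 (adjusted p = 0.0754), at levels of only 1.08 to 3.00 CPM.

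Levels are given as CPM on effective library sizes, a scale for comparing 1 gene between libraries. Between genes, CPM was divided by the length in kilobases of the principal annotated transcript. On the length-scaled quantity the 78 genes spanned 1.71 to 116, with a median of 16.5. Mrpl52 stood highest at 116 ± 17.7 (SD, n = 24), followed by Mrpl30 at 85.5 ± 10.9 and Mrpl14, the homologue of bacterial L14, at 68.8 ± 11.1. Mrpl30 and Mrpl14 differed by less than the sum of their SDs. The lowest were Mrps25 at 1.71 ± 0.223, Mrpl19 at 1.88 ± 0.501 and Mrpl47 at 3.94 ± 1.11, and the first 2 of these differed by less than their spread. This order depends on the transcript chosen. With all annotated exons as the length, Mrpl30 fell to rank 23 and Mrpl12, which forms the flexible stalk that binds translation factors, stood highest at 54.9. Small-subunit genes had a median length-scaled level of 16.2 and large-subunit genes of 17.7. Cytosolic ribosomal proteins, the comparison group of 80 tested genes, had a median of 213, and 79 tested nuclear subunits of oxidative phosphorylation of 112.

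**Figure D1:**
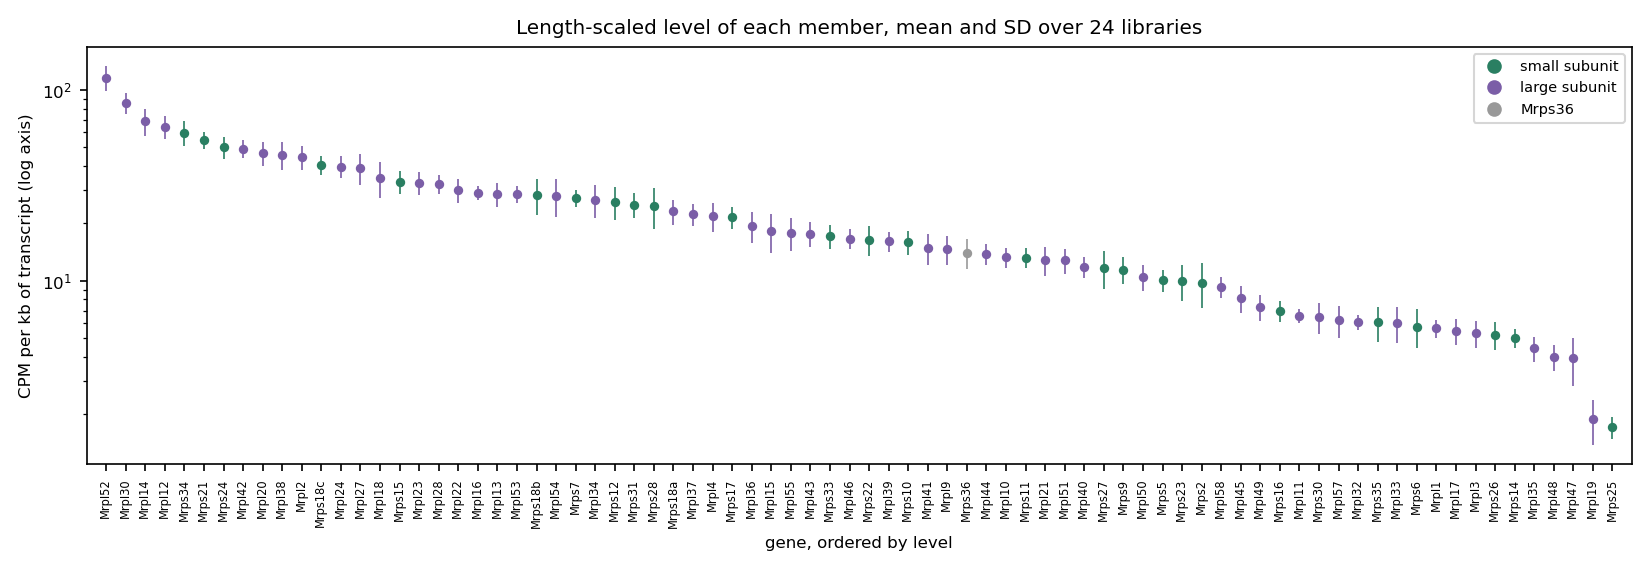
Length-scaled level of each of the 78 genes (CPM per kilobase of principal transcript, log axis), ordered from highest to lowest and coloured by subunit; points are means and bars SDs over 24 libraries. Small-subunit and large-subunit genes are interleaved along the whole range from 116 to 1.71.

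The genes lie on 17 chromosomes, and all 78 identifiers matched the GENCODE M21 annotation of the files' genome build, GRCm38. Of the 78, 33 (42.3%) had the start of a protein-coding gene on the opposite strand within 1000 bases of their own start, compared with 2340 of 21756 other protein-coding genes of the table (10.8%). In 23 genes (29.5%), exon bases overlap those of another gene of the table. Whether reads were counted by strand is not given in the sources used here, so reads of such antisense overlaps cannot be told apart.

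RefSeq promoter windows of 300 bases (250 before the start and 50 after, build GRCm38.p6) were matched for 69 of the 78 genes, giving 75 windows. These were searched on both strands for 5 short letter strings named after factors known to regulate genes of mitochondria. CGGAAG, the core bound by ETS factors such as the nuclear respiratory factor GABP, stood in 53.3% of the members' windows and in 21% of 21187 windows of other protein-coding genes. GCGCATGC, a core of the motif of NRF1, stood in 10.7% against 3.49%, and AAGATGGCG, which YY1 binds, in 10.7% against 1.8%. CACGTG, the E-box of MYC and related factors, stood in 9.33% against 7.83%, and AAGGTCA, the core bound by ERRalpha, in 5.33% against 4.07%. The members' windows also held more CpG (median 21 against 13) and slightly more G and C (median 58.7% against 56.3%). None of the 5 strings contains another, although NRF1 strings can overlap their own reverse complement.

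Stretches upstream of 4 RefSeq starts are shown, sense strand, 5′ to 3′, build GRCm38.p6, outside annotated exons, with matches in capitals. The genes were chosen because their transcripts changed with diet, Mrpl9, Mrps2 and Mrps23 upwards in restricted wild type and Mrpl10 downwards in restricted mutants.
Mrpl9, chr3:94443168-94443317, plus strand: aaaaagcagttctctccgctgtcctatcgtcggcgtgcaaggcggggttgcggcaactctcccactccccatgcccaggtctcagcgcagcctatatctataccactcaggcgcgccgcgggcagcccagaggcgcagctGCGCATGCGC
Mrpl10, chr11:97041410-97041559, plus strand: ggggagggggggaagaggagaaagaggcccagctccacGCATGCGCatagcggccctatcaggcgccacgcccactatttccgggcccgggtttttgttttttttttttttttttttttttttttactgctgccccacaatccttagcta
Mrps2, chr2:28467916-28468065, plus strand: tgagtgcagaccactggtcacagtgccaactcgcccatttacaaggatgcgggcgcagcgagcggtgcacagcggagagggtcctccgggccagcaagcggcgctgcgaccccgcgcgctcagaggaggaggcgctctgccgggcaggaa
Mrps23, chr11:88204238-88204387, plus strand: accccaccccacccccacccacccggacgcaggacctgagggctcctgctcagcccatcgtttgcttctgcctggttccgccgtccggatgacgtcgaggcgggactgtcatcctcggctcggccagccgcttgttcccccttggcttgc
The NRF1 string stood in the stretch of Mrpl9, where it reads on both strands across a palindrome, and in that of Mrpl10, which moved the other way. In the stretches of Mrps2 and Mrps23 none of the 5 strings stood. The stretches are shorter than the windows searched. Of the 6 genes that rose in restricted wild type 5 had a window, and CGGAAG stood in 4 of these, those of Mrpl47, Mrpl9, Mrps23 and Mrps31. It stood in the window of Mrpl27, which fell, and none of the 5 strings stood in that of Mrps2.

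Across the 24 libraries the 78 transcripts varied about as much as the nuclear subunits of oxidative phosphorylation and less than the median gene. Their median SD of log2 CPM was 0.21, against 0.39 over all genes tested, 0.34 over the 8456 genes with a mean CPM in the members' range, 0.31 over cytosolic ribosomal proteins and 0.21 over nuclear subunits of oxidative phosphorylation. The highest group mean of a gene was on median 1.30 times its lowest, and exceeded 1.5 times in 11 of 78 genes (14.1%). That ratio was exceeded in 62.2% of all genes tested, in 80% of cytosolic ribosomal proteins and in 15.2% of the oxidative phosphorylation subunits, whose median ratio was 1.33. Among the 78, the flattest was Mrpl32, with a ratio of 1.08, and the most variable were Mrpl47 and Mrpl54 at 1.86 each, both large-subunit genes. Restricted mutants held the highest group mean for 23 genes and freely fed mutants of 16 weeks for 17. Restricted wild types held the lowest for 26 and freely fed mutants of 16 weeks for 1.

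**Figure D2:**
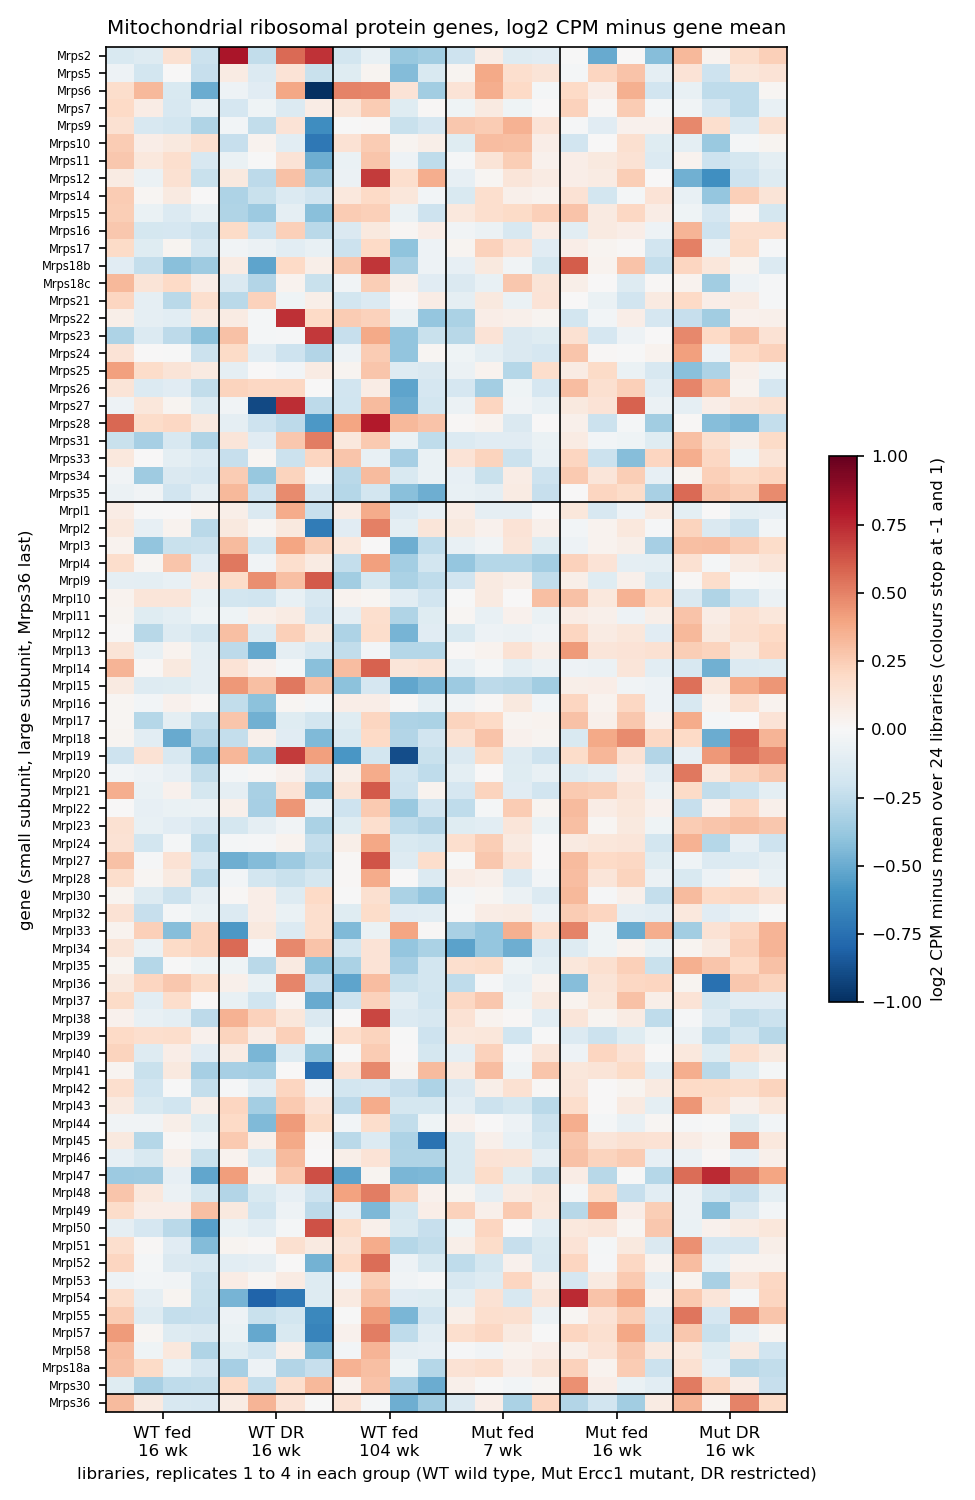
Log2 CPM minus the gene's mean over 24 libraries for each of the 78 genes (rows) in each library (columns, 4 per group), with colours stopping at -1 and 1. Most cells are pale (median SD 0.21), and the second library of the 104-week wild type is the reddest column of its group.

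Summed over the 78 genes, the level was 2029 ± 153 CPM (SD, n = 4) in freely fed wild type of 16 weeks, 2095 ± 153 in restricted wild type and 2057 ± 306 in wild type of 104 weeks. In mutants it was 2072 ± 60.1 at 7 weeks, 2185 ± 132 at 16 weeks and 2201 ± 137 under restriction. On this scale the ranges of the 6 groups overlapped, and the widest spread came from a single 104-week library (replicate 2) at 2494. As a share of raw counts they did not all overlap. Restricted mutants, at 0.224% to 0.256%, lay above freely fed wild types of 16 weeks at 0.189% to 0.206%. They also lay above wild types of 104 weeks at 0.176% to 0.206% and mutants of 7 weeks at 0.188% to 0.212%. The ratio of summed small-subunit to summed large-subunit level lay between 0.423 and 0.476 in every library. Cytosolic ribosomal proteins behaved otherwise. Their sum was 5.51 ± 0.199 times that of the mitochondrial set in freely fed wild type of 16 weeks, 8.28 ± 1.39 times in restricted wild type and 7.15 ± 0.167 times at 104 weeks. In mutants the ratio was 5.71 ± 0.124 at 7 weeks, 6.67 ± 0.85 at 16 weeks and 7.78 ± 1.22 under restriction. Every restricted or 104-week wild-type library had a higher ratio than every freely fed wild-type library of 16 weeks. The same was true of every mutant library of 16 weeks on either diet. The 13 messenger RNAs of mitochondrial DNA summed to 56.5 ± 1.90 times the set in freely fed wild type of 16 weeks and 44.8 ± 4.51 times in freely fed mutants of 16 weeks, with no overlap. Under restriction the ratio was 66.6 ± 17.5 in wild type and 58.0 ± 4.54 in mutants. In wild type of 104 weeks it was 49.9 ± 7.08 and in mutants of 7 weeks 51.3 ± 5.01. Each of these groups, restricted or not, overlapped the freely fed wild type of 16 weeks. Wild types of 104 weeks and mutants of 7 weeks also overlapped the freely fed mutants of 16 weeks. The restricted groups of either genotype lay wholly above those mutants.

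**Figure D3:**
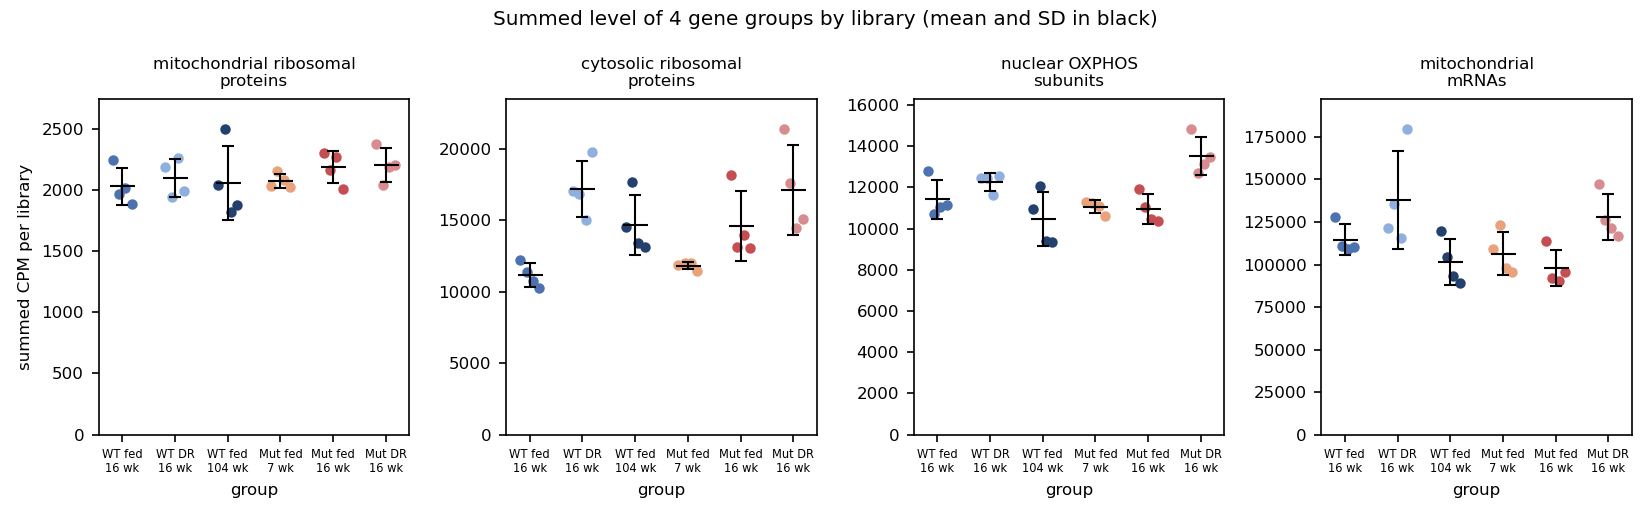
Summed CPM per library (points) with group mean and SD (black) for the mitochondrial ribosomal proteins, cytosolic ribosomal proteins, nuclear subunits of oxidative phosphorylation and mitochondrial messenger RNAs, in 6 groups. Group means in the first panel lie between 2029 and 2201. Cytosolic ribosomal proteins are higher in restricted and 104-week wild type, and in mutants of 16 weeks on either diet, than in freely fed wild type of 16 weeks.

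The comparisons below come from a single edgeR quasi-likelihood fit on all 6 groups, with Benjamini-Hochberg adjustment over the 12690 genes and a threshold of 0.05 for a call. Several of them share groups, so their values are set side by side and not treated as independent. Over the 6 pairwise comparisons there were 20 calls on 15 of the 78 genes, and 63 were never called. Called changes lay between 0.32 and 0.68 on the log2 scale in either direction, that is at most a 1.60-fold rise or a fall to 0.682 of the reference. Of the 20 calls, 7 were kept in every fit that left out 1 library of the groups compared.

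**Figure D4:**
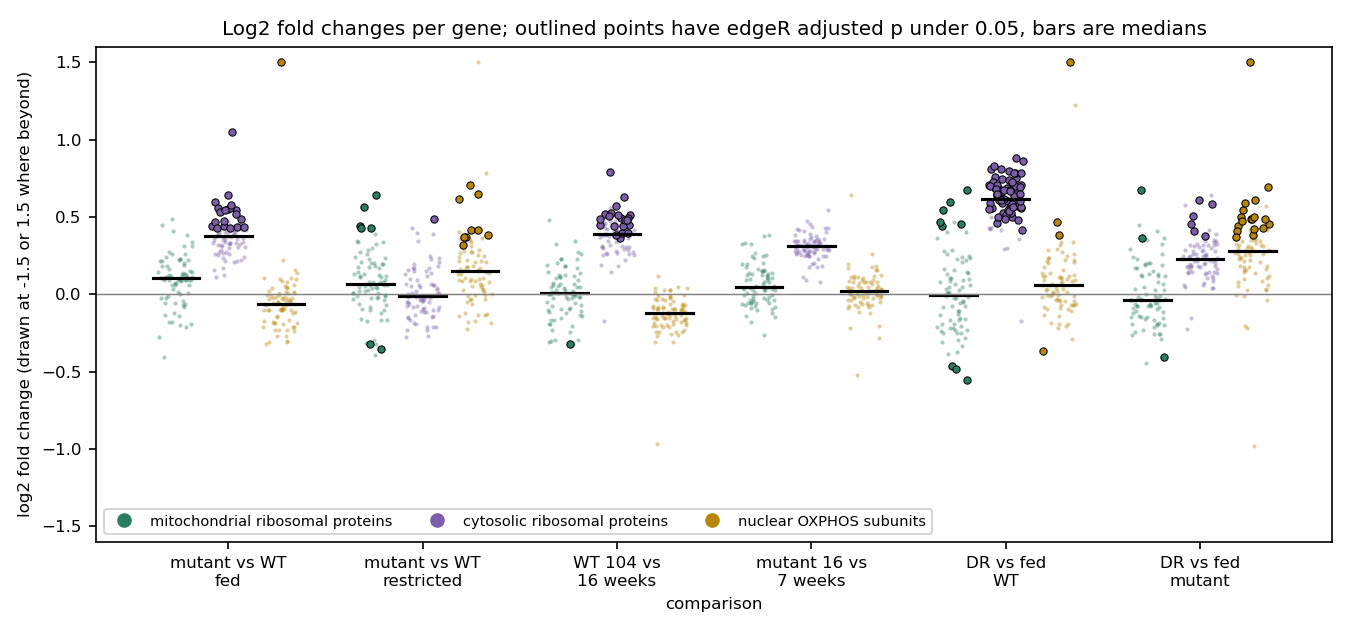
Log2 fold change of each mitochondrial ribosomal protein (green), cytosolic ribosomal protein (purple) and nuclear subunit of oxidative phosphorylation (gold) in 6 comparisons; outlined points have an adjusted p under 0.05 and bars are medians. The green medians lie between -0.04 and 0.11, while the purple median is 0.62 in restricted wild type.

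Dietary restriction in wild-type mice changed 9 of the 78 transcripts, 6 upwards and 3 downwards, or 11.5% of them, against 13.6% of all genes tested (6.3% upwards and 7.3% downwards). Mrpl47, Mrps2, Mrps23, Mrps31, Mrpl15 and Mrpl9 rose, and Mrps28, Mrpl54 and Mrpl27 fell. The set as a whole had no common direction, with a median log2 fold change of -0.0021 (all genes 0.039) and 39 of 78 values above 0. Over the same mice, 69 of 80 cytosolic ribosomal proteins rose and none fell, with a median of 0.62. Groups did not overlap for 12 of the 78 genes (15.4%), against 17.2% of all genes, and 20 (25.6%, against 28.6%) had an unadjusted p under 0.05 in edgeR. For 58 of the 78, the 95% interval of the change lay within 1.5-fold in either direction.

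Mrpl47 encodes the homologue of bacterial L29, which lies near the exit of the tunnel for the growing peptide. Its CPM was 9.95, 9.98, 12.1 and 8.91 in freely fed wild types and 17.1, 13.1, 15.3 and 20.0 in restricted wild types. In mutants of 16 weeks it was 13.5, 10.5, 12.8 and 10.5 on free feeding and 18.9, 21.4, 18.2 and 16.8 under restriction. All restricted livers of either genotype lay above all freely fed livers of the same genotype. The rise was 0.68 (SE 0.158, adjusted p = 0.00544) in wild type and 0.67 (SE 0.157, adjusted p = 0.00527) in mutants. The difference between the 2 rises was -0.0058, with a 95% interval from -0.46 to 0.45. Exons of Mrpl47 overlap those of Ndufb5 and Actl6a on the other strand. Ndufb5 had log2 changes of 0.27 (SE 0.137) and 0.28 (SE 0.137) in the same 2 comparisons, neither called. Actl6a had 0.12 (SE 0.161) in wild type and -0.37 (SE 0.162) in mutants, neither called.

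Mrpl15, the homologue of bacterial L15 and among the most abundant of the 78 by CPM, showed 79.2, 68.1, 68.8 and 70.1 CPM in freely fed and 101, 91.9, 107 and 92.1 in restricted wild types. In mutants the values were 77.8, 78.3, 72.7 and 71.9 on free feeding and 109, 80.3, 96.4 and 101 under restriction. The groups did not overlap in either genotype. Mrpl15 rose by 0.45 (SE 0.103, adjusted p = 0.00468) in wild type and by 0.36 (SE 0.103, adjusted p = 0.0216) in mutants. The call in wild type held without any single library. That in mutants was lost without freely fed mutant replicate 3 or 4 or without restricted mutant replicate 1 or 4, with adjusted p up to 0.086.

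Mrpl9, the homologue of bacterial L9, stood at 22.0, 21.8, 22.2 and 24.7 CPM in freely fed and 26.5, 32.2, 28.8 and 35.7 in restricted wild types, with no overlap. It rose by 0.44 (SE 0.113, adjusted p = 0.0108). In restricted mutants it stood at 23.6, 26.3, 23.3 and 23.1 CPM, beside 21 to 24.4 in freely fed mutants, a change of 0.08 with a 95% interval from -0.15 to 0.32. The test of the difference between genotypes gave -0.36 (SE 0.16, adjusted p = 0.305).

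Mrps31 and Mrps23 are small-subunit proteins without a bacterial counterpart. Mrps31 stood at 32.3, 29.9, 33.7 and 30.5 CPM in freely fed and 40.9, 34.8, 45.4 and 53.7 in restricted wild types, a rise of 0.47 (SE 0.121, adjusted p = 0.0117). Mrps23 stood at 10.6, 11.9, 10.9 and 9.87 against 16.0, 12.9, 13 and 21.3 CPM, a rise of 0.55 (SE 0.17, adjusted p = 0.0325). For both genes the groups did not overlap, and restricted replicate 4 was the highest. Mrps2, the homologue of bacterial S2, had 17.8, 18.1, 22.0 and 17.1 CPM in freely fed and 34.8, 16.7, 29.3 and 32.6 in restricted wild types. It rose by 0.60 (SE 0.171, adjusted p = 0.0209), although restricted replicate 2 lay below all freely fed values.

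Mrps28, Mrpl27 and Mrpl54 fell. Mrps28, a protein of the small subunit, stood at 28.1, 21.4, 21.7 and 20.1 CPM in freely fed and 17.7, 16.3, 15.7 and 12.6 in restricted wild types, a log2 change of -0.55 (SE 0.148, adjusted p = 0.0142). Mrpl27, the homologue of bacterial L27 at the peptidyl transferase centre, stood at 35.5, 28.8, 32.0 and 25.8 against 20.6, 21.4, 22.6 and 23.9 CPM, a change of -0.46 (SE 0.14, adjusted p = 0.0286). For both genes the groups did not overlap. Mrpl54, a large-subunit protein, stood at 18.6, 15.5, 16.8 and 14.1 against 12.0, 9.46, 10.0 and 15.1 CPM, a change of -0.48 (SE 0.161, adjusted p = 0.0473) with overlap through restricted replicate 4. The principal transcripts of the 6 genes that rose were 1332 to 4203 bases long and those of the 3 that fell 604 to 783 bases. For the 69 not called the median was 1223 bases and the range 418 to 7300, which covers both.

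Most of these calls rested on individual libraries. Without restricted wild-type replicate 4, 4 members were called, and Mrps23 (0.37, adjusted p = 0.172), Mrps31 (0.35, adjusted p = 0.0624), Mrpl9 (0.37, adjusted p = 0.0507), Mrps28 (-0.46, adjusted p = 0.0625) and Mrps2 (0.53, adjusted p = 0.0702) were not. Without freely fed wild-type replicate 1, 5 members were called, and Mrpl27 (-0.38, adjusted p = 0.113), Mrpl54 (-0.41, adjusted p = 0.151) and Mrps28 (-0.43, adjusted p = 0.0737) were lost with Mrps2 and Mrps23. Without restricted replicate 1, 5 were called, and Mrps2 (0.48, adjusted p = 0.0791), Mrps23 (0.54, adjusted p = 0.0589), Mrpl27 (-0.43, adjusted p = 0.0706) and Mrpl54 (-0.50, adjusted p = 0.0727) were lost. Mrpl27, Mrpl54, Mrps2 and Mrps23 were each lost without 4 to 6 of the 8 libraries in turn. In a fit on the 2 wild-type groups alone, Mrpl47 (0.68, adjusted p = 0.0381) and Mrpl15 (0.45, adjusted p = 0.0362) were the only members called. Erythroid markers summed to 396 to 868 CPM in restricted and 1235 to 2299 in freely fed wild types, with 3 of 5 called lower. Macrophage markers summed to 97.1 to 173 against 108 to 172 CPM, with 1 of 11 called higher and only 1 of the 11 changes above 0. Hepatocyte markers summed to 112181 to 142433 against 86517 to 97154 CPM, with 1 of 7 called higher, and B and plasma cell markers to 1.55 to 3.46 against 4.35 to 10.8, with 1 of 3 tested called lower. Of 6 stellate and fibroblast markers 1 was called higher and 2 lower, with sums of 190 to 226 against 99.9 to 209 CPM. Of 5 cholangiocyte markers 1 was called higher. The part of these markers in the results was not tested.

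**Figure D5:**
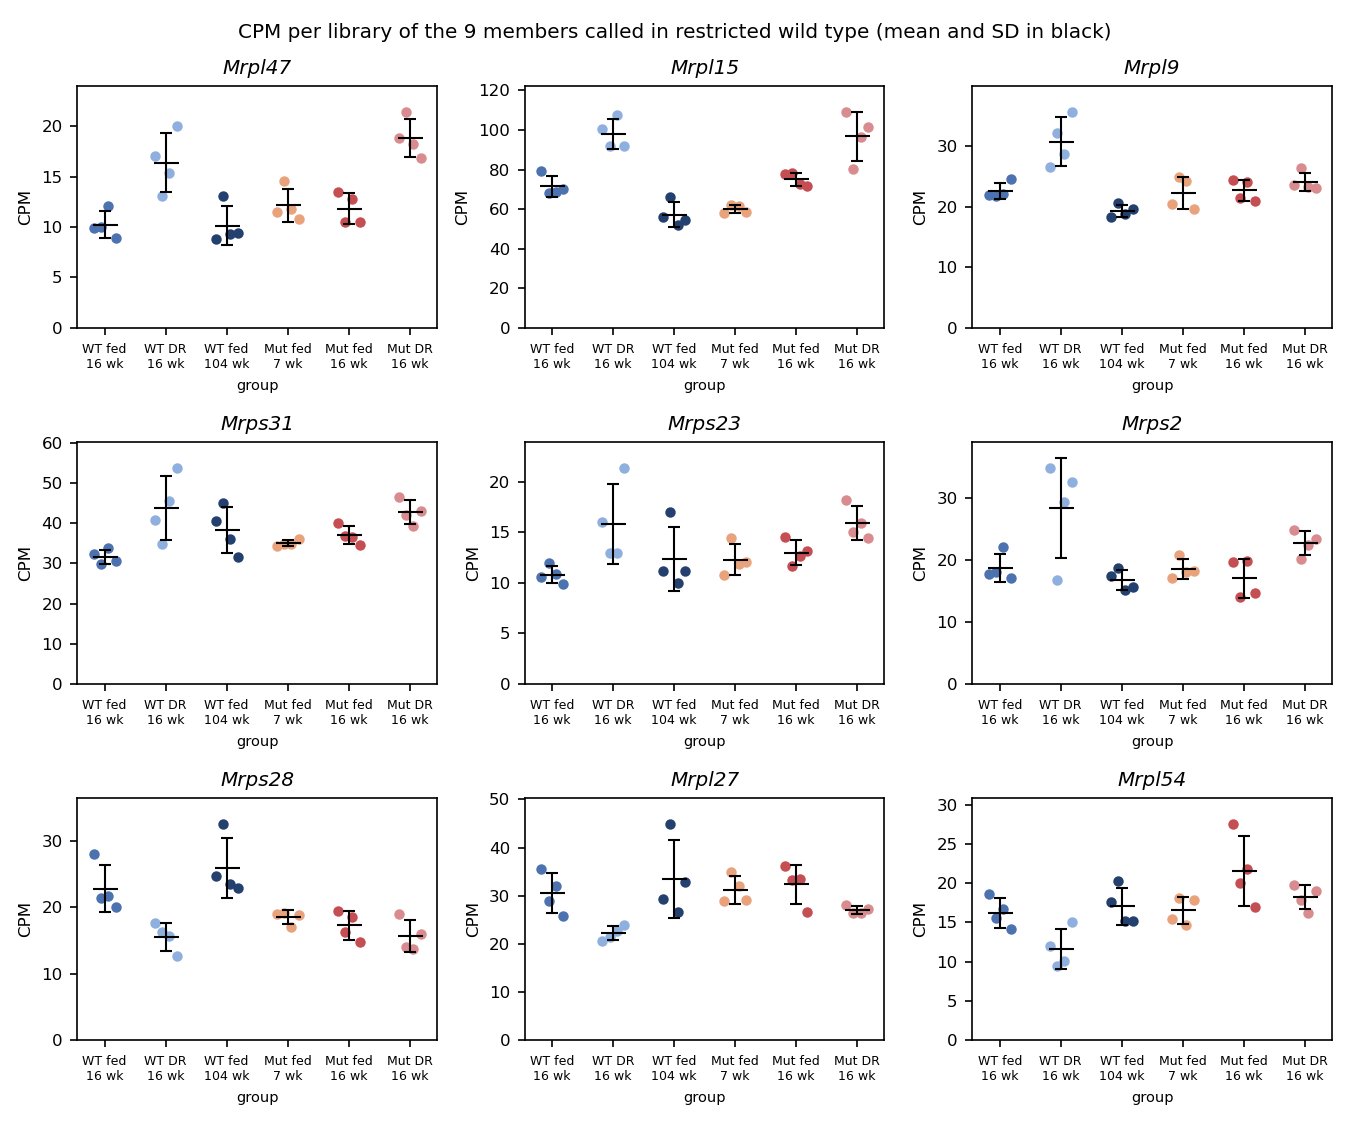
CPM per library (points, axis from 0) with group mean and SD (black) for the 9 members called in restricted against freely fed wild type. Mrpl47 and Mrpl15 are higher under restriction in both genotypes without overlap, while Mrpl9 lies at 26.5 to 35.7 in restricted wild types and at 23.1 to 26.3 in restricted mutants.

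In mutants, restriction changed 3 of the 78 transcripts (3.85%, against 11.2% of all genes, 4.91% upwards and 6.33% downwards), Mrpl47 and Mrpl15 upwards, as given above, and Mrpl10 downwards. Mrpl10 encodes the protein that anchors the stalk of Mrpl12 to the large subunit. Its CPM was 27.7, 24.3, 28.6 and 25.9 in freely fed and 20.4, 18.3, 19.9 and 21.7 in restricted mutants, without overlap, a change of -0.41 (SE 0.104, adjusted p = 0.0109) that held without any single library. In a fit on the 2 mutant groups alone only Mrpl47 was called, with Mrpl10 at -0.39 (adjusted p = 0.0629) and Mrpl15 at 0.38 (adjusted p = 0.0741). The median change of the 78 was -0.036 (all genes 0.0027), and groups did not overlap for 13 of the 78 (16.7%, against 17.3%). In edgeR 11 (14.1%, against 25.3%) had an unadjusted p under 0.05. Mrps12, the homologue of the S12 protein of the decoding centre, had a change of -0.45 (adjusted p = 0.072) without overlap. Mrps36 had 0.45 (adjusted p = 0.0886). Nuclear subunits of oxidative phosphorylation were called higher for 18 of 79, with a median of 0.28, and mitochondrial messenger RNAs for 4 of 13. Hepatocyte markers summed to 103186 to 124780 CPM in restricted and 75592 to 88902 in freely fed mutants, with 1 of 7 called higher and 2 lower. Endothelial markers summed to 90.5 to 137 against 73.8 to 94.1 CPM, with 2 of 6 called higher. Macrophage markers summed to 285 to 420 against 182 to 337 CPM, with 1 of 11 called higher, and 1 of 5 erythroid markers was called lower. Their part in these results was not tested.

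Whether restriction acted differently in the 2 genotypes was tested as an interaction. None of the 78 transcripts was called, against 1.5% of all genes (0.906% positive and 0.591% negative). In edgeR 2 of 78 (2.56%, against 14.2%) had an unadjusted p under 0.05. After adjustment DESeq2 called none either. The lowest p-values belonged to Mrpl50 at -0.49 (95% interval -0.92 to -0.06, adjusted p = 0.284), Mrpl9, given above, and Mrps28 at 0.41 (-0.02 to 0.84, adjusted p = 0.384). For Mrpl50, a large-subunit protein, restricted wild-type replicate 4 stood at 34.1 CPM and the other 3 restricted wild types at 20.4 to 21.7. Only 41 of the 78 intervals lay within 1.5-fold in either direction, so a difference of that size between genotypes was not excluded for the others, Mrpl50 among them.

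Between genotypes under restriction, 7 of the 78 transcripts differed (8.97%, against 18.3% of all genes, 9.58% higher and 8.7% lower in mutants), all in the large subunit. Mrpl54, Mrpl55, Mrpl13, Mrpl35 and Mrpl23 were higher in mutants, and Mrpl9 and Mrpl39 lower. Of the 26 small-subunit genes none was called, which was not tested as a difference between subunits. The median of the 78 was 0.07 (all genes -0.030), and groups did not overlap for 8 (10.3%, against 15.8%). In edgeR 12 (15.4%, against 31.7%) had an unadjusted p under 0.05. For 63 of 78 the interval lay within 1.5-fold. The libraries of restricted wild type and restricted mutants also enter the diet comparisons above, so the values of Mrpl54 and Mrpl9 here and there are not independent.

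Mrpl54 stood at 12.0, 9.46, 10.0 and 15.1 CPM in restricted wild types and 19.7, 17.9, 16.2 and 19.1 in restricted mutants, a difference of 0.65 (SE 0.161, adjusted p = 0.00627) without overlap. Mrpl13, the homologue of bacterial L13, stood at 28.9, 24.3, 32.6 and 31.0 against 41.2, 40.5, 37 and 40.3 CPM, 0.44 higher in mutants (SE 0.108, adjusted p = 0.00508). Mrpl23, homologue of a bacterial protein beside the tunnel exit, stood at 19.8, 21.1, 21.8 and 17.9 against 26.7, 27.1, 27.5 and 27 CPM, 0.43 higher (SE 0.118, adjusted p = 0.0135). These 3 had no overlap and were called without any single library. In a fit on the 2 restricted groups alone none of the 7 was called, with Mrpl54 at 0.67 (adjusted p = 0.0568), Mrpl13 at 0.47 (adjusted p = 0.0818) and Mrpl23 at 0.45 (adjusted p = 0.0799). Exons of Mrpl13 overlap those of Mtbp on the other strand.

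Mrpl35 was 0.43 higher in restricted mutants (SE 0.138, adjusted p = 0.0311) and Mrpl55 was 0.56 higher (SE 0.18, adjusted p = 0.0302), the latter with overlap, since mutant replicate 2 stood at 13.5 CPM among wild types of 9.69 to 14.6. Mrpl9 was lower in mutants, at -0.35 (SE 0.113, adjusted p = 0.0302), and Mrpl39 had -0.32 (SE 0.109, adjusted p = 0.0424), at 30.3 to 35.3 CPM in mutants and 35.7 to 43.3 in wild types. These 4 calls were each lost without 4 to 6 of the 8 libraries in turn, with adjusted p up to 0.0857 for Mrpl35, 0.0936 for Mrpl55, 0.117 for Mrpl9 and 0.108 for Mrpl39. Without restricted mutant replicate 4, 3 of the 78 were called, and without restricted mutant replicate 1 or 3 or restricted wild-type replicate 4, 4 were called. Macrophage markers moved with genotype here, with 11 of 11 called higher in mutants and sums of 285 to 420 against 97.1 to 173 CPM, and 2 of 3 tested neutrophil markers were called higher. Of 7 hepatocyte markers 1 was called higher and 2 lower. The part of these markers in the result was not tested.

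On free feeding at 16 weeks, no transcript of the 78 was called between mutants and wild types, against 9.94% of all genes (5.1% higher and 4.85% lower). In edgeR, 9 of the 78 (11.5%, against 24% of all genes) had an unadjusted p under 0.05, and DESeq2 called none. The absence of calls depended on the fit, since edgeR on these 2 groups alone called 5 members, among them Mrps28 (-0.41, adjusted p = 0.0496) and Mrpl50 (0.38, adjusted p = 0.0384), and scaling to raw library totals called 3. Most values were slightly above 0, 59 of 78, with a median of 0.11 (all genes 0.02, with 6643 of 12690 above 0). Among large-subunit genes 43 of 51 were above 0, and among small-subunit genes 16 of 26. For 65 of 78 the interval lay within 1.5-fold. Cytosolic ribosomal proteins had a median of 0.38, with 20 of 80 called higher. Macrophage markers were called higher in mutants for 7 of 11, with sums of 182 to 337 against 108 to 172 CPM, and erythroid markers lower for 4 of 5, and their part in these values was not tested.

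The 3 lowest p-values on free feeding belonged to Mrps28, Mrpl50 and Mrpl54. Mrps28 stood at 28.1, 21.4, 21.7 and 20.1 CPM in wild types and 19.4, 16.2, 18.6 and 14.8 in mutants, at -0.40 (95% interval -0.71 to -0.10, adjusted p = 0.0849). Mrpl50 stood at 20.7, 19.6, 18.2 and 15.1 against 23.7, 23.8, 22.2 and 26.4 CPM, at 0.39 (0.08 to 0.69, adjusted p = 0.102). Neither gene's groups overlapped, as was so for 9 of the 78 (11.5%, against 22.5% of all genes). Mrpl54 was at 0.41 (0.08 to 0.74, adjusted p = 0.108), with overlap. Dap3, a GTP-binding protein of the small subunit whose symbol falls outside the rule, was called higher in mutants, at 47.1 ± 3.91 against 28.8 ± 3.02 CPM on free feeding (0.71, adjusted p = 0.000286). Under restriction it stood at 38.9 ± 5.31 against 28.9 ± 2.22 CPM (0.43, adjusted p = 0.0145).

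Between 104 and 16 weeks in freely fed wild type, 1 of the 78 transcripts was called (1.28%, against 10.1% of all genes, 5.13% higher and 5% lower). In edgeR 7 (8.97%, against 24.5%) had an unadjusted p under 0.05. Mrpl15 stood at 56.2, 66.3, 52.0 and 54.4 CPM at 104 weeks and at 79.2, 68.1, 68.8 and 70.1 at 16 weeks, without overlap. Its log2 change was -0.32 (SE 0.104, adjusted p = 0.0477). This call sat at the threshold. It was kept only without 104-week replicate 2 and lost without each of the other 7 libraries in turn, with adjusted p up to 0.135. In a fit on these 2 groups alone Mrpl15 was at -0.33 (adjusted p = 0.0844), and without the filter on low counts at -0.34 (adjusted p = 0.0833). The median of the 78 was 0.0055 (all genes 0.016), groups did not overlap for 2 (2.56%, against 16.9%), and for 70 of 78 the interval lay within 1.5-fold. Mrps18b, among 3 homologues of bacterial S18 in this ribosome, stood at 36.0, 48.8, 23.8 and 28.8 against 27.5, 25.2, 22.3 and 23.2 CPM, at 0.48 (95% interval 0.09 to 0.87, adjusted p = 0.11), and without 104-week replicate 3 at 0.62 (adjusted p = 0.0429). Mrps31 was at 0.27 (0.02 to 0.52, adjusted p = 0.161). Over the same libraries 21 of 80 cytosolic ribosomal proteins were called higher, with a median of 0.39. Markers of B and plasma cells summed to 39.1 to 45.3 CPM at 104 weeks and 4.35 to 10.8 at 16 weeks, with 3 of 3 tested called higher. Macrophage markers summed to 136 to 325 against 108 to 172 CPM, with 4 of 11 called higher, and neutrophil markers to 7.17 to 10.7 against 7.46 to 10.5, with 2 of 3 tested called higher. Of 6 stellate and fibroblast markers 1 was called lower, and of 7 hepatocyte markers 1 higher. The part of these markers was not tested.

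Between 16 and 7 weeks in freely fed mutants, none of the 78 was called, against 0.686% of all genes (0.355% higher and 0.331% lower). In edgeR, 5 (6.41%, against 10.4%) had an unadjusted p under 0.05, and DESeq2 called none. The median was 0.047 (all genes 0.0039). Mrpl15 had the lowest p, at 58.2, 62.1, 61.4 and 58.8 CPM at 7 weeks and 77.8, 78.3, 72.7 and 71.9 at 16 weeks, a difference of 0.32 (95% interval 0.11 to 0.54, adjusted p = 0.183). In a fit on the 2 mutant groups alone it was the 1 member called (0.33, adjusted p = 0.037). Mrpl4, a homologue of a bacterial protein that lines the peptide tunnel, had 21.2, 22.7, 22.8 and 21.9 against 32.5, 30.5, 26.1 and 25.9 CPM, at 0.38 (0.07 to 0.68, adjusted p = 0.326). Neither gene's groups overlapped, as for 7 of the 78 (8.97%, against 12.4%). Mrpl54 was at 0.38 (0.05 to 0.71, adjusted p = 0.373). For 69 of 78 the interval lay within 1.5-fold.

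Genes fixed for their known roles were called in none of the 6 pairwise comparisons. They were Mrpl12, Mrpl3, Mrpl44, Mrpl58, Mrps5, Mrps12, Mrps16, Mrps22, Mrps34, Mrps18a, Mrps18b, Mrps18c, Mrps30 and Mrps36. Mrpl12 stood at 75.6 CPM on average in freely fed wild type of 16 weeks, 91.7 under restriction and 74.8 at 104 weeks, and in mutants at 79.3, 88.1 and 95.6 for 7 weeks, 16 weeks and restriction. Mrps5, whose change has been tied to lifespan in mice and worms, stood at 41.4, 43.9 and 40.1 CPM in the same wild-type groups and at 50.8, 48.1 and 46.3 in the mutant groups. The group means of Mrpl58, a peptidyl-tRNA hydrolase that rescues stalled ribosomes, lay between 21.3 and 26.4 CPM. Those of Mrps16 lay between 17.1 and 19.5. The 3 homologues of bacterial S18 did not share a pattern of group means. Mrps18b was lowest in freely fed wild type of 16 weeks at 24.6, Mrps18c was highest there at 29.2, and Mrps18a ranged from 17.4 in restricted wild type to 22.1 in mutants of 7 weeks.

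Partners of the mitochondrial ribosome were examined by lists. Of the translation factors 16.7% were called in restricted wild type, 8.33% in restricted mutants and 16.7% between restricted genotypes. Of the assembly and RNA factors it was 7.41%, 3.7% and 7.41%, against 13.6%, 11.2% and 18.3% of all genes. Of 5 ribosomal proteins under other symbols, Dap3 was called in both genotype comparisons, as given above, and Ptcd3, a small-subunit protein, was lower at 104 than at 16 weeks (-0.39, adjusted p = 0.0144). Among 12 translation factors, the ribosome-recycling factor Gfm2 fell (-0.54, adjusted p = 0.00631) and the release factor Mtrf1l rose (0.58, adjusted p = 0.0392) in restricted wild type. The elongation factor Guf1 rose in restricted mutants (0.54, adjusted p = 0.0096) and was higher in them than in restricted wild types (0.49, adjusted p = 0.0138). Mtrf1l was lower in restricted mutants than in restricted wild types (-0.63, adjusted p = 0.0208). Among 27 assembly and RNA factors, the methyltransferases Mrm3 (0.78, adjusted p = 0.0108) and Mettl15 (-1.59, adjusted p = 0.00166) moved in opposite directions in restricted wild type. Between restricted genotypes Mettl15 (1.38, adjusted p = 0.00374) and Slirp (0.43, adjusted p = 0.0298), a partner of mitochondrial messages, were higher in mutants. Rpusd3 fell in restricted mutants (-0.59, adjusted p = 0.0255).

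Aminoacyl-tRNA synthetases and related enzymes of mitochondria, 20 genes, gave 1 rise and 3 falls in restricted wild type (20%, against 13.6% of all genes). The rise was that of Mars2, the methionine enzyme (0.72, adjusted p = 0.0435). Gatb, a subunit of the amidotransferase that completes glutaminyl-tRNA, fell in restricted wild type (-0.62, adjusted p = 0.000445) and in restricted mutants (-0.45, adjusted p = 0.00744), and was lower at 104 weeks (-0.40, adjusted p = 0.0184). Iars2, the isoleucine enzyme, fell in restricted wild type (-0.55, adjusted p = 0.00153) and differed in its response between genotypes (interaction 0.67, adjusted p = 0.0252). Fars2, the phenylalanine enzyme, was lower in freely fed mutants at 11 ± 1.25 against 22.2 ± 3.23 CPM (-1.01, adjusted p = 0.000584). On free feeding 1 of the 20 was called higher in mutants and 1 lower (10%, against 9.94% of all genes). Between restricted genotypes 1 was called higher in mutants and 2 lower (15%, against 18.3%), which are not named here. Of 13 transcription and biogenesis genes, 3 rose in restricted wild type (23.1%, against 13.6% of all genes called). They were the co-activator Pprc1 (1.1, adjusted p = 0.0292), Nrf1 (0.74, adjusted p = 0.0375) and Esrra (0.59, adjusted p = 0.0382), the gene of ERRalpha. Esrra also rose in restricted mutants (0.88, adjusted p = 0.00259). At 104 weeks Esrra (-0.60, adjusted p = 0.0466) and Tfam (-0.38, adjusted p = 0.0263), which packages mitochondrial DNA, were lower and Myc (2.48, adjusted p = 0.0237) and Pprc1 (1.17, adjusted p = 0.0265) higher. The share of this list called there was 30.8%, against 10.1% of all genes. Differences between the shares of lists and of all genes were not tested.

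The 33 members with an opposite start within 1000 bases formed 32 pairs, since Mrpl46 and Mrps11 neighbour each other, and both genes were tested in 28 pairs. In restricted wild type 2 of the 29 members with a tested neighbour and 6 of their 29 neighbours were called, against 13.6% of all genes. No pair had both genes called. Mrpl9 and Mrpl27 were also called there, but their neighbours Oaz3 and Eme1 were not tested. Only 2 members of such pairs were called between restricted genotypes (against 18.3% of all genes) and 2 in restricted mutants (against 11.2%). In the other 3 comparisons none was called. These calls are too few to show whether neighbours change together. Beside Mrpl49 lies Fau, which encodes a ubiquitin-like protein fused to a cytosolic ribosomal protein. Fau stood at 168.6 ± 22.4 CPM in freely fed and 267 ± 35.9 in restricted wild types and rose by 0.66 (adjusted p = 0.00741). Mrpl49 had -0.25 (adjusted p = 0.275) in the same comparison. The neighbours Gga3 (0.91, beside Mrps7), Helq (0.70, beside Mrps18c) and Ptcd2 (0.52, beside Mrps27) also rose there, and Cyb5rl (-0.69, beside Mrpl37) and Pnpla7 (-0.67, beside Mrpl41) fell, each next to a member that was not called. These neighbours were named because they were called, after their values were seen.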

How the data were processed

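Polyadenylated liver RNA of 24 mice was sequenced, and the authors deposited raw counts per gene. The submitters' processing notes name STAR 2.7.0f, Trimmomatic 0.39 and, from Subread 1.6.4, featureCounts, and the build GRCm38.p6. No source used here gives strandedness or annotation. Counts were tested with edgeR 4.0.16 (R 4.3.3): filterByExpr, TMM scaling, a robust quasi-likelihood fit with 1 mean per group over all 24 libraries (18 residual degrees of freedom) and Benjamini-Hochberg adjustment over 12690 genes. Standard errors are the log2 change divided by the square root of F, and intervals are 95%. DESeq2 1.42.0 was an alternative. CPM (counts-per-million) uses TMM library sizes, and SDs of log2 CPM use a pseudocount of 0.1. Lengths come from GENCODE M21 principal transcripts, and promoters from RefSeq (GRCm38.p6). No pair of replicates was near identical (chi-square per degree of freedom at least 8.77). The fitting script was tested on simulated data. Members, lists, the fixed genes and the naming rule were chosen with earlier results of these data known. The rule names called members without overlap (up to 5 per direction), the 3 lowest p-values where fewer than 3 were called, fixed genes and the 3 highest and 3 lowest levels, and the called genes of companion lists, 2 per direction. For the companion lists the rule was not followed throughout, and some of their called genes are not named. Mrps2, Mrpl55 and, in restricted wild type, Mrpl54, called despite overlap, were named after their values were seen. Alternatives were other scalings, no filter, removal of mitochondrial transcripts, a replicate block, fits on the compared groups, DESeq2, and leaving out each library.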

Additional observations from a re-analysis of the deposited data

Results flagged for a closer look

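In groups of 4 libraries, a value was singled out where its gap to the nearest other library, as a share of the group's range, exceeded Dixon's 95% critical value. Of 246 groups examined (36 named members and the ratios), 15 held such a value; chance flags about 1 in 20 groups. The second library of wild type at 104 weeks stood alone in 4 of them, with Mrpl13 at 34.1 CPM (others 28.4 to 29.3), Mrpl4 at 36.8 (21.9 to 24.4), Mrpl47 at 13 (8.81 to 9.39) and Mrpl58 at 30.4 (22.5 to 23.5). That library also had the highest summed level of the 78 genes. Restricted mutant replicate 2 stood alone in Mrpl14 at 31.4 CPM (others 39.3 to 40.1), Mrps5 at 38.8 (48.3 to 49.1) and Mrpl9 at 26.3 (23.1 to 23.6). In mutants of 7 weeks, Mrpl19 was 10.4 CPM in replicate 2 (others 7.90 to 8.30), Mrps22 was 15.6 in replicate 1 (19.8 to 20.4) and Mrps28 was 17.0 in replicate 3 (18.9 to 19.2). In freely fed wild type of 16 weeks, Mrpl9 was 24.7 in replicate 4 (21.8 to 22.2) and Mrps16 was 21.4 in replicate 1 (15.4 to 15.8). Mrpl50 was 34.1 in restricted wild-type replicate 4 (20.4 to 21.7), and Mrpl13 was 46.5 in freely fed mutant replicate 1 (37.8 to 38.5). The ratio of nuclear oxidative phosphorylation subunits to the 78 genes was 4.63 in freely fed mutant replicate 3 (5.09 to 5.18).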

How the results depend on the processing

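No called member reversed its direction in any alternative; over 300 pairs of a call and an alternative, 215 kept the call and 85 lost it. Calls of Mrpl47 in both genotypes and of Mrpl15 in restricted wild type were kept in every alternative. The number of called members ranged, on leaving out 1 library, from 0 to 0 (mutant against wild type, fed), 3 to 7 (restricted), 0 to 1 (104 weeks), 0 to 0 (mutant age), 4 to 11 (restriction, wild type), 2 to 3 (restriction, mutant) and 0 to 0 (interaction). Fits on only the groups compared, which have fewer residual degrees of freedom, called 5, 0, 0, 1, 2 and 1 in the 6 pairwise comparisons in that order, and so ended all 7 calls between restricted genotypes.

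Raw library totals shifted the median of all genes to 0.09, 0.09, -0.04, 0.08, 0.10 and 0.12, and called 3 members on free feeding, 10 between restricted genotypes (10 higher and 0 lower, against 5 and 2), 11 in restricted wild type (9 and 2, against 6 and 3) and 7 in restricted mutants (7 and 0, against 2 and 1). Over all genes, calls higher on free feeding were then 906 of 1324, against 647 of 1262. They were 1582 of 2165, against 1216 of 2320, between restricted genotypes and 66 of 89, against 45 of 87, for mutant age. For restriction they were 1092 of 1761, against 800 of 1726, in wild type and 1005 of 1501, against 623 of 1426, in mutants. Without the filter on low counts, 4 members were called between restricted genotypes and 0 at 104 weeks.

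Sample numbers did not pair the samples: deviations of same-numbered samples correlated with a median r of 0.01 over 60 pairs, 14 over 0.1, and 4 of 24 libraries matched best within their own number. With a replicate block the 6 comparisons and the interaction called 0, 7, 0, 0, 9, 3 and 0 members, so the block ended only the call of Mrpl15 at 104 weeks (adjusted p = 0.0554).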
